A study of Homo sapiens with 4 samples.

Results

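The genes for the proteins of the cytosolic ribosome were examined for peaks of γH2AX, the phosphorylated form of the histone variant H2AX that marks DNA double-strand breaks, in HepG2 human liver cancer cells. Members were the protein-coding RefSeq genes (Y chromosome left out) with symbols of the RPL and RPS series (RPLP0, RPLP1, RPLP2 and RPSA included, the RPS6K kinases and RPS19BP1 left out). They numbered 85 of 19821 protein-coding genes, 53 of the large and 32 of the small ribosomal subunit. Chromatin was profiled by CUT&Tag, in which an antibody guides a transposase that tags nearby DNA for sequencing. The samples were mock-treated HepG2 cells, whose titles carry DMSO, and HepG2 cells under lipid overload (overloaded cells below), whose titles carry PAOA. Each treatment had 1 γH2AX sample and 1 control IgG sample. The sources used here do not give the dose and duration of the lipid overload. The peak lists of the 2 γH2AX samples were used. The control IgG samples were not analysed here, and no antibody background stands beside the values. With 1 sample per condition no difference below has a replicate check or a test, and intervals (95%) cover counting error only.

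Ribosomal proteins bind ribosomal RNA to form a small subunit, which reads messenger RNA, and a large subunit, which joins amino acids. Their genes are short, are transcribed in nearly every growing cell and hold many small nucleolar RNA genes in their introns. Their messenger RNAs typically begin with C followed by a run of pyrimidines, the TOP (terminal oligopyrimidine) tract, through which the mTOR pathway controls their translation.

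The starts of 7 members are shown because they hold that shared feature both in genes with a γH2AX peak and in genes without one. Each runs from 100 bases before to 10 bases from the annotated start onward, 5′ to 3′ along the gene, from RefSeq (GRCh38.p14, the coordinates of hg38). Capitals mark the pyrimidine run at the start and any of the short motifs searched further below. RPL35, RPS19 and RPS6 had a peak at the start in both lists, RPS28 and RPLP0 in overloaded cells only, and RPS21 and RPL24 in neither.
RPL35, chr9:124861948-124862057, minus strand: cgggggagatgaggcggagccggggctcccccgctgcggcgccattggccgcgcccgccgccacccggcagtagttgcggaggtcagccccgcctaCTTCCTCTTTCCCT
RPS19, chr19:41860155-41860264, plus strand: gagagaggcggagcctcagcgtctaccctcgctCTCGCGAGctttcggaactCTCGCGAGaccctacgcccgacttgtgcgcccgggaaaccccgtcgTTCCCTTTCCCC
RPS6, chr9:19380227-19380336, minus strand: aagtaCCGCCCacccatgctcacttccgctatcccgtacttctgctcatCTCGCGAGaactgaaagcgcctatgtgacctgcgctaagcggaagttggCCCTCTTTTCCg
RPS28, chr19:8321396-8321505, plus strand: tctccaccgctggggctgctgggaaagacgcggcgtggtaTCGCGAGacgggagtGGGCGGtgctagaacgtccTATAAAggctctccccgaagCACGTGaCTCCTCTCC
RPLP0, chr12:120201102-120201211, minus strand: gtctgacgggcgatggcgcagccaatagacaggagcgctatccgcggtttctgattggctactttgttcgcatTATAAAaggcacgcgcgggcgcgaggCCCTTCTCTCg
RPS21, chr20:62387003-62387112, plus strand: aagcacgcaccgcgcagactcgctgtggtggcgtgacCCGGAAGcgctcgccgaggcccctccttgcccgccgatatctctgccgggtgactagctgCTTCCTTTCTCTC
RPL24, chr3:101686709-101686818, minus strand: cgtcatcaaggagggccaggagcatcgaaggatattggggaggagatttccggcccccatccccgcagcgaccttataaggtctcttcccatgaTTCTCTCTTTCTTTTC
In 6 of these 7 promoters the run begins within 4 bases before or 1 base after the annotated start. In RPL24 it begins 6 bases before it.

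Member genes carried γH2AX peaks at their ends in a higher share than all protein-coding genes did, in both lists. A gene end was taken as the 1 kb on either side of either end of the gene, and 1 shared base counted as a peak there. In mock cells 25 of 85 members (29.4%, 20.0 to 40.3) had a gene-end peak, where 13.4% of all protein-coding genes did. In lipid overload 62 members (72.9%, 62.2 to 82.0) had one, against a background of 43.4%. A peak in both lists was found at 23 members (27.1%, 18.0 to 37.8, background 12.1%) and in overloaded cells only at 39 (45.9%, 35.0 to 57.0, background 31.4%). RPL34 and RPL17 had a gene-end peak in mock cells alone (2.35%, 0.286 to 8.24, background 1.34%). The other 21 members, 24.7% against 55.2% of all protein-coding genes, had none at a gene end in either list. Large-subunit genes stood at 15 and 37 of 53 in mock cells and lipid overload, and small-subunit genes at 10 and 25 of 32, shares whose intervals overlap.

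The libraries differed in depth. There were 8542 peaks in the mock list and 27296 in that of lipid overload. By the background level of each list, the overloaded library held 2.62 fragments for each fragment of the mock library. With the fragments of each lipid-overload peak divided by 2.62 and rounded down, and only peaks as significant as the weakest mock peak kept, 8371 lipid-overload peaks remained. Then 37 of 85 members (43.5%, 32.8 to 54.7) had a gene-end peak in overloaded cells, against 25.5% of all protein-coding genes. The mock count was 25, and the difference between these 2 libraries has no test. The number in overloaded cells only was 18 at this depth (21.2%, 13.1 to 31.4, background 15.6%). In mock cells only it was 6 (7.06%, 2.63 to 14.7, background 3.52%). Each of these last 2 intervals holds its background.

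**Figure D1:**
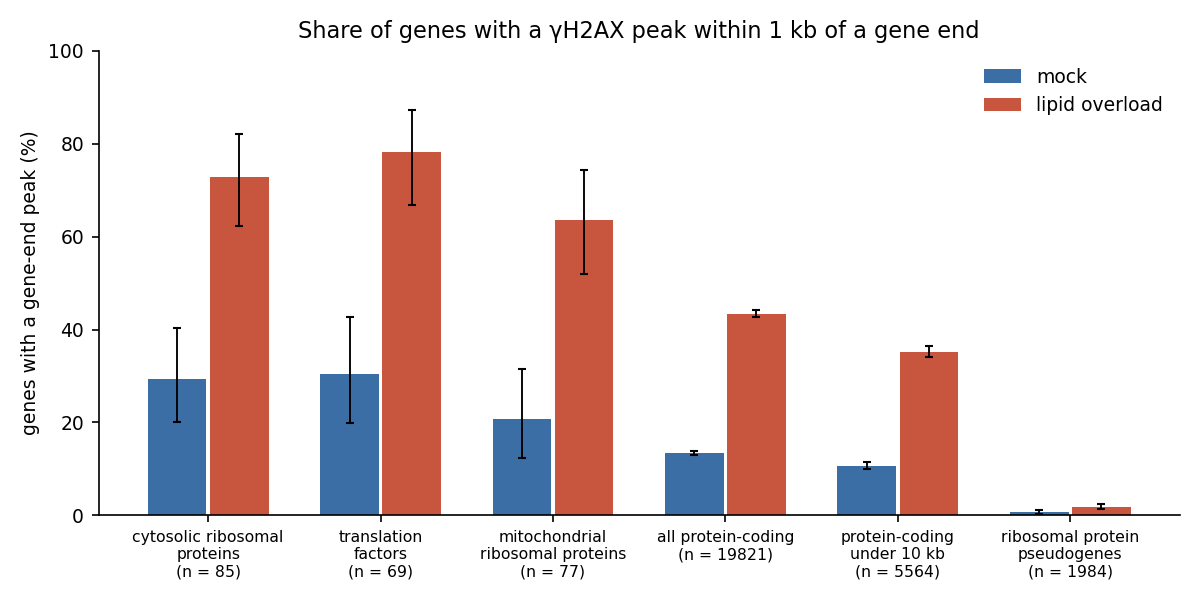
Percentage of genes (y axis) with a peak within 1 kb of a gene end, by gene group (x axis), in mock cells (blue) and lipid overload (red). Bars are shares and lines exact binomial 95% intervals over genes. Cytosolic ribosomal protein genes stand at 29.4% and 72.9%, above all protein-coding genes at 13.4% and 43.4% and near translation factor genes, while ribosomal protein pseudogenes are below 2%.

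Other genes of translation lay in the same range. Translation factor genes, taken by the symbols EIF and EEF, had a gene-end peak in 21 of 69 cases in mock cells (30.4%, 19.9 to 42.7) and 54 in overloaded cells (78.3%, 66.7 to 87.3). Genes of the mitochondrial ribosome, which makes proteins of the respiratory chain, stood at 16 of 77 (20.8%, 12.4 to 31.5) and 49 (63.6%, 51.9 to 74.3). All these intervals overlap those of the members. Short gene length does not come with a higher share in these lists: protein-coding genes under 10 kb stood at 10.7% and 35.2%, and the 72 members under 10 kb at 27.8% and 73.6%. The median member was 5035 bp long and the median protein-coding gene 24482 bp.

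Most peaks of members overlapped a gene-end window, which reaches 1 kb into the gene and so covers much or all of a short one. All 85 members together held 28 mock and 80 lipid-overload peaks, of which 27 and 75 were at a gene end. With peaks anywhere in the gene counted, the numbers were 26 members in mock cells (30.6%, background 24.2%) and 63 in overloaded cells (74.1%, background 58.0%). The interval of the mock share (21.0 to 41.5) holds that background. Peaks that overlap the gene itself were listed for 17.6% and 55.3% of members, near the 19.6% and 50.5% of all protein-coding genes. Protein-coding genes under 10 kb had a peak anywhere in 12.3% and 39.1% of cases, and members under 10 kb in the same 27.8% and 73.6% as at their ends. Peaks away from the end windows were listed at few members. RPS29 had an inside peak with 5 fragments over the summit in mock cells and 12 in overloaded cells, over 12 kb from either end. RPS24 had one of 10 fragments and RPL3L one of 13, both in overloaded cells. RPL26L1, a paralog of RPL26, had 2 lipid-overload peaks of 8 and 9 fragments. The summit of the first lay 60 bases upstream of an annotated start that is inside the gene model, so that RPL26L1 counts as a gene without a gene-end peak although a peak lay at one of its starts.

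The peaks at members were of middling height. The number of fragments over each summit was solved from the deposited fold and p of each peak. At the highest gene-end peak of each member it had a median of 6 in mock cells (range 3 to 13) and 13 in overloaded cells (range 4 to 39). Over all protein-coding genes with a gene-end peak the medians were 7 and 12, with maxima of 113 and 161. In lipid overload 10 of 62 members (16.1%) had 20 or more fragments, as had 1896 of 8611 protein-coding genes with a peak. Members were thus listed more often than other genes, with peaks of similar median height. Their gene-end peaks had a median width of 184 bp (mock) and 284 bp (lipid overload). All peaks of the 2 lists, at gene ends or elsewhere, had median widths of 180 and 196 bp. Widths of gene-end peaks over all protein-coding genes were not computed. The fragment number does not tell a mark in fewer cells from less of the mark per cell.

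Of the large subunit, RPL35, RPL36 and RPL37 had 24 fragments each in overloaded cells (15.4 to 35.7). Their peaks lay at chromosome 9, 124861968 to 124862316 (hg38), chromosome 19, 5690155 to 5690513, and chromosome 5, 40835222 to 40835614. RPL35, which sits beside the exit of the peptide tunnel, had 12 in mock cells (6.20 to 21.0), RPL37 11 (5.49 to 19.7) and RPL36 7 (2.81 to 14.4). RPL8, a protein near the catalytic centre, had 22 fragments in overloaded cells (13.8 to 33.3) and no gene-end peak in mock cells. RPL12, at the foot of the stalk that binds elongation factors, RPS16, whose tail contacts transfer RNA in the small subunit, and RPL7L1, a paralog of RPL7, had 20 each (12.2 to 30.9), also in overloaded cells only. The 3 proteins of the acidic stalk itself, RPLP0, RPLP2 and RPLP1, had 19, 15 and 11 fragments, all in overloaded cells only. RPL13 and RPL23A had 17 each and RPS28 with 16, again without a gene-end peak in mock cells. At RPL8, RPL13 and RPL23A a mock peak of 10, 13 and 7 fragments lay between 1 and 3 kb from a gene end.

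**Figure D2:**
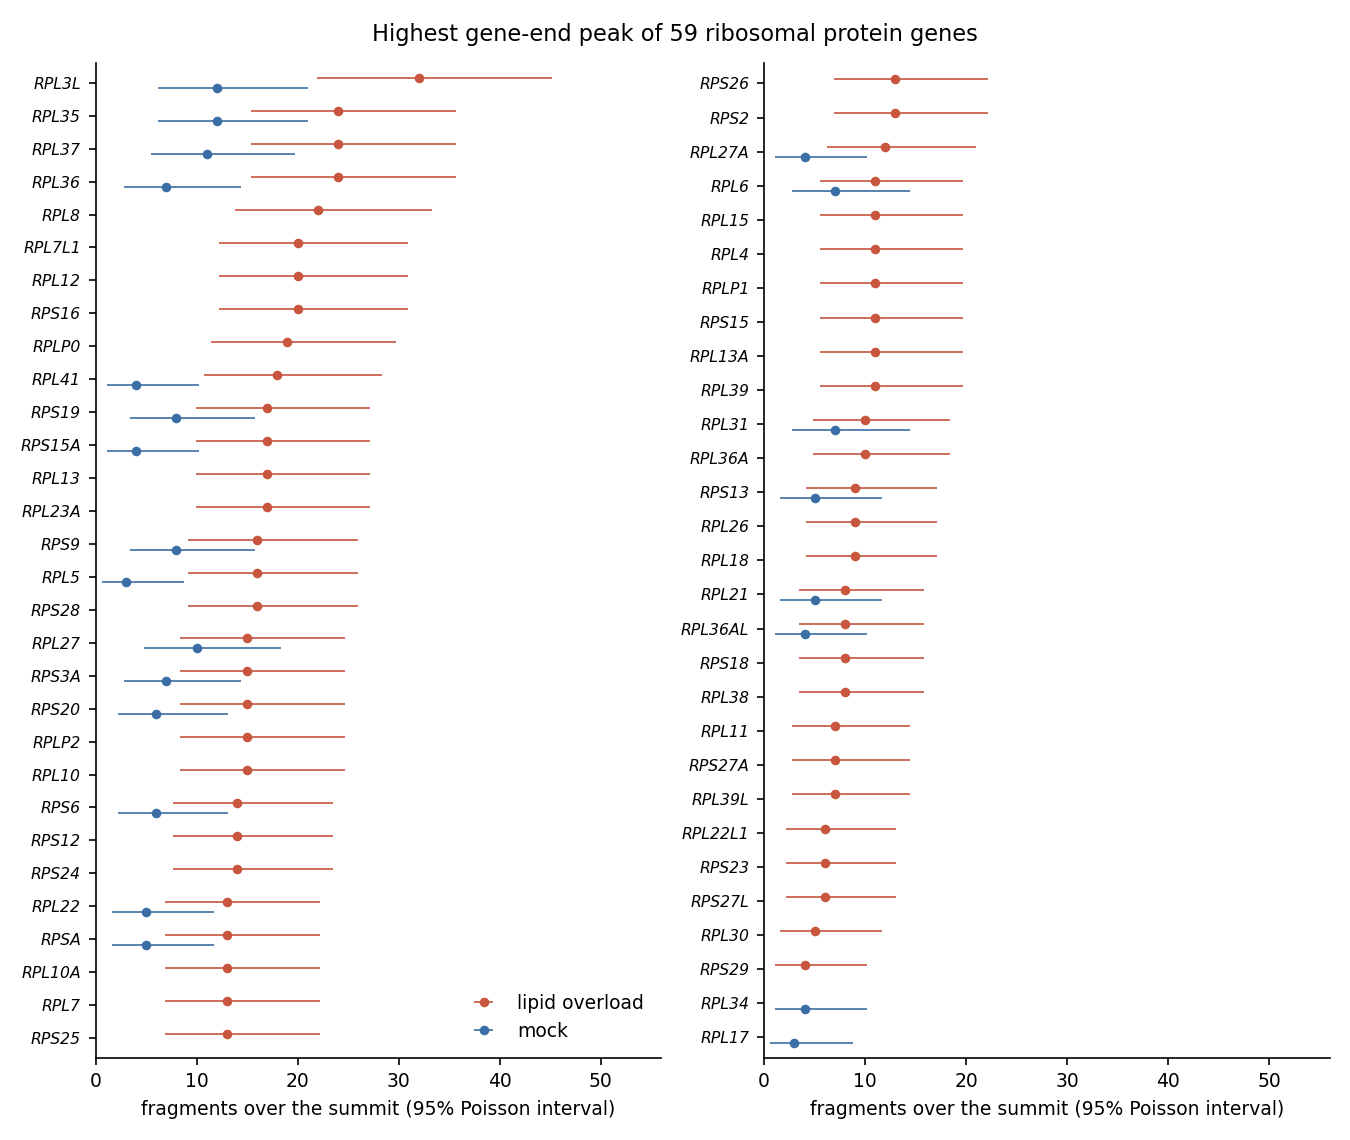
Fragments over the summit of the highest gene-end peak (x axis) for 59 of the 64 members with such a peak (y axis), in mock cells (blue) and lipid overload (red), with exact Poisson 95% intervals. A missing point means that no peak was listed. RPL35, RPL36 and RPL37 are drawn at 24 fragments in red, and most members have a red point only.

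At the 23 members with a peak in both lists the ratio of fragment numbers was close to that of library depths. Only members listed in the shallower mock library enter this ratio. That choice favours high mock numbers and leaves out the 39 members listed in overloaded cells only, which lowers the ratio. All protein-coding genes below were chosen in the same way. The ratio of lipid overload to mock had a median of 2.33 (range 1.43 to 5.33), where depth alone gives 2.62 and all 2390 protein-coding genes with a peak in both lists had a median of 2.57. It was above 2.62 at 8 of 23 members and at 48.4% of those 2390 genes. The counting interval of the ratio held 2.62 at all 23 members. At the upper end RPL5, which carries ribosomal RNA into the large subunit and binds MDM2 when assembly fails, had 3 and 16 fragments (ratio 5.33, 1.53 to 28.6). RPL41, the smallest protein of the ribosome, had 4 and 18 (4.50, 1.48 to 18.3) and RPS15A 4 and 17 (4.25, 1.39 to 17.4). At the lower end RPL31 had 7 and 10 (1.43, 0.491 to 4.42), RPL27 10 and 15 (interval of the ratio 0.630 to 3.73) and RPL6 7 and 11 (1.57, 0.556 to 4.78). The ratio of RPL31 compares peaks at different sites. Another mock peak of RPL31, of 5 fragments, overlapped the lipid-overload peak. No single member stood apart from the depth ratio beyond counting error, but the intervals are wide and could hide sizeable differences. The highest peaks of both lists overlapped each other at 21 of the 23 members, the exceptions being RPL21 and RPL31. The same count was not made over the 2390 protein-coding genes, so this overlap is not read as particular to members.

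**Figure D3:**
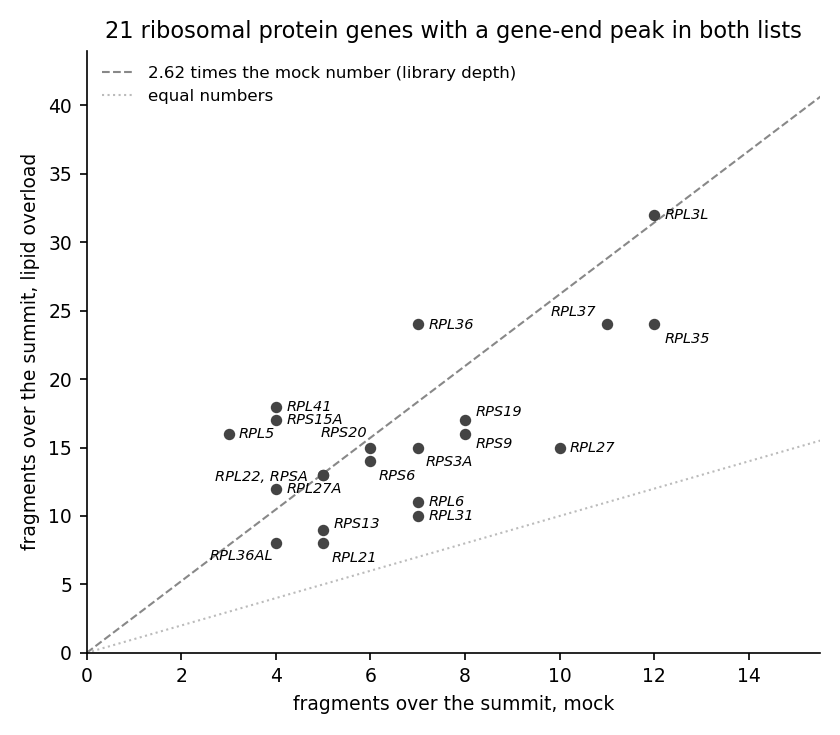
Fragments over the summit in mock cells (x axis) and lipid overload (y axis) at 21 of the 23 members with a gene-end peak in both lists. The dashed line is 2.62 times the mock number, the ratio of library depths, and the dotted line equal numbers. All points lie above the dotted line, and 6 lie above the dashed line.

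Among the remaining members of this group RPS19, the gene most often mutated in Diamond-Blackfan anaemia, had 8 fragments in mock cells and 17 in overloaded cells, and RPS9 8 and 16. RPS6, the target of the S6 kinases, had 6 and 14, RPS20 6 and 15, and RPS3A 7 and 15. RPSA and RPL22 had 5 and 13 each, RPS13 5 and 9, and RPL21 5 and 8. RPL27A had 4 and 12 fragments, and RPL36AL, a paralog of RPL36A, 4 and 8. These mock numbers lie close to the lower limit of the list. The weakest peaks of the mock list have 3 fragments and its median peak has 5.

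The 39 members with a gene-end peak in overloaded cells only had a median of 11 fragments there (range 4 to 22). Divided by 2.62 this is 4.19, and 26 of the 39 come out below 5, the median peak of the mock list. Scaled to the mock depth, peaks of 21 of the 39 were no longer listed, and a difference between conditions at those 21 was not detectable at this depth. The remaining 18, among them RPLP0, RPLP1, RPLP2, RPL4, RPL8, RPL10, RPL12, RPL15, RPL36A, RPL39, RPL7L1, RPS12, RPS16, RPS24, RPS25, RPS26 and RPS28, were still listed in overloaded cells only, without a test of the difference. The members found in mock cells only were weak, with 4 fragments at RPL34 (1.09 to 10.2) and 3 at RPL17 (0.619 to 8.77).

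The members without a gene-end peak in either list were RPL3, RPL7A, RPL9, RPL10L, RPL14, RPL19, RPL23, RPL24, RPL26L1, RPL28, RPL29, RPL32, RPL35A, RPL37A, RPS3, RPS4X, RPS7, RPS10, RPS14, RPS21 and RPS27. They include RPL3, which helps shape the catalytic centre, and RPS3, at the messenger RNA entry of the small subunit. The nearest peaks to the 1 kb limit were those of RPL7L1 (844 bp from the gene end) and RPL15 (968 bp) on the inside, and of RPL28 (1110 bp, 10 fragments), RPL8 (1115 bp, 13 fragments) and RPL17 (1130 bp, 8 fragments) on the outside, all in overloaded cells.

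Peaks sat at gene starts, mostly just upstream. Strand and start were known from the RefSeq promoter table for 68 members. Of the 68, 17 had a peak at the 5′ end in mock cells (25.0%, background 12.9%) and 44 in overloaded cells (64.7%, background 42.6%). At the 3′ end the counts were 1 (1.47%, background 1.49%) and 7 (10.3%, 4.24 to 20.1, background 5.87%). Where a summit lay within 1 kb of the start, its median position was 110 bases upstream in mock cells (12 of 16 members upstream) and 104 bases upstream in overloaded cells (35 of 43, 81.4%). Over all protein-coding genes the medians were 66 and 72 bases upstream, with 61.2% and 66.3% upstream. In lipid overload 34 of the 43 members (79.1%) had the summit within 250 bases of the start, against 71.3% over all protein-coding genes.

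**Figure D4:**
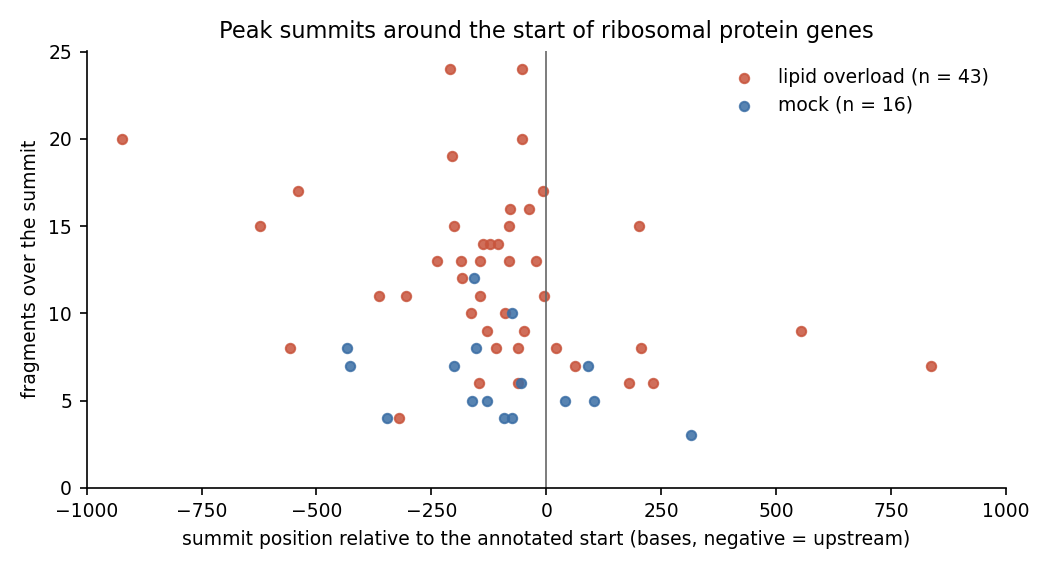
Position of the summit relative to the annotated start in bases (x axis, negative values upstream) against fragments over the summit (y axis), for members with a summit within 1 kb of the start, in mock cells (blue, n = 16) and lipid overload (red, n = 43). Most points lie left of the line at the start, with medians 110 and 104 bases upstream.

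Some peaks counted for a member lay closer to the start of a neighbouring gene. Of 46 members with a lipid-overload gene-end peak and a known start, the summit of the highest peak was nearer to the annotated start of another gene at 11, and at 4 of 18 in mock cells. Starts were known for 15812 of 19821 protein-coding genes, so a nearer start of another gene can be missed and these counts can be too low. The highest peaks of RPL41, RPL4 and RPL7L1 lay at the 3′ end of those genes, 77, 48 and 76 bases from the starts of ZC3H10, SNAPC5 and PEX39. The peak of RPL35 lay 36 bases from the start of ARPC5L and 209 from its own, that of RPL27A 57 bases from the start of TRIM66, and that of RPLP0 25 bases from the start of the antisense RNA PXN-AS1. The peak of 20 fragments counted for RPL12 lay 819 bases from the start of LRSAM1 and 923 from its own. Another lipid-overload peak of RPL12, of 16 fragments, had its summit 147 bases upstream of its own start. The peaks of RPL6 lay at the outer 5′ end of its gene model, where an end of PTPN11 lies within 1 kb. Their summits were 7670 bases (mock) and 7596 bases (lipid overload) from the nearest annotated start of RPL6. The counts for RPL6 therefore cannot be told apart from counts for PTPN11. RPL3L, the muscle form of RPL3, had 12 fragments in mock cells (6.20 to 21.0) and 32 in overloaded cells (21.9 to 45.2). That summit lay 177 bases from the start of the neighbouring gene MSRB1. The count for RPL3L therefore cannot be told apart from one for MSRB1. The 53 members with no other coding gene end within 1 kb had gene-end peaks in 28.3% of cases in mock cells and 71.7% in overloaded cells, close to the 29.4% and 72.9% of all members.

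Members with known roles in disease or beyond the ribosome were counted separately. Of 21 members linked to inherited disease, most of them to Diamond-Blackfan anaemia, a failure of red cell production (RPSA is known for congenital asplenia), 8 had a gene-end peak in mock cells (38.1%) and 17 in overloaded cells (81.0%), where all members stood at 29.4% and 72.9% and all protein-coding genes at 13.4% and 43.4%. Of RPL5, RPL11, RPL23 and RPL26, which link failed ribosome assembly to p53 through MDM2, only RPL5 had a gene-end peak in mock cells and 3 had one in overloaded cells (16 fragments at RPL5, 9 at RPL26 and 7 at RPL11). Among the 8 paralogs of core proteins, 2 had a gene-end peak in mock cells (RPL3L and RPL36AL) and 6 in overloaded cells. RPL10L, an intronless copy of RPL10 used in the testis, had none. Members that hold small nucleolar RNA genes stood at 10 and 22 of 29 (34.5% and 75.9%), and those without at 15 and 40 of 56 (26.8% and 71.4%).

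Ribosome components that carry other names and genes that build ribosomes were set beside the members. FAU, which encodes a small-subunit protein fused to a ubiquitin-like one, had 16 fragments in mock cells and 22 in overloaded cells (13.8 to 33.3), a mock count above that of every member. RACK1 had no gene-end peak. RPS27A, fused to ubiquitin, had 7 fragments in overloaded cells only. Of 48 genes of nucleolar processing and assembly, 12 (25.0%) had a gene-end peak in mock cells and 32 (66.7%) in overloaded cells, against 13.4% and 43.4% of all protein-coding genes. The highest in overloaded cells were NPM1, the nucleolar chaperone, with 37 fragments (12 in mock cells), NOLC1 with 30, EIF6 with 23 (8 in mock cells) and EMG1 with 22. Of 8 carriers of new ribosomal proteins, 2 (25.0%) and 7 (87.5%) had one, led by the import receptor KPNB1 with 19 fragments in mock cells and 47 in overloaded cells. RNA polymerase I and its factors, which make the ribosomal RNA precursor, stood at 1 of 15 in mock cells (6.67%) and 9 of 15 in overloaded cells (60.0%). All protein-coding genes stood at 13.4% and 43.4%. With 15 genes and no interval or test, these shares are not read as lower or higher than those. TAF1D was the gene with a peak in mock cells, with 11 fragments and 23 in overloaded cells.

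Member promoters share sequence features, which are given here for members with and without a lipid-overload gene-end peak. The groups of 46 and 22 are small, and no difference between them was tested. They were split by a peak at either gene end, which need not lie at the promoter searched. RPL41 and RPL18 count as members with a peak through their 3′ end alone. RPL6 counts as one through a peak at the outer 5′ end of its gene model, 7596 bases from the start of the promoter searched. RPL26L1 counts as a member without one although a peak lay at one of its starts. The promoter was the 300 bases from 250 before to 50 from the start onward. A run of at least 7 pyrimidines starting within 10 bases of the annotated start was found in 51 of 68 members and in 15.6% of 15812 protein-coding promoters. It was present in 36 of 46 members with a lipid-overload gene-end peak (78.3%) and in 15 of 22 without (68.2%). The annotated start was a C in 70.6% of members and 11.3% of all promoters. CTCGCGA, the core of a palindromic element bound by the factor BANP, was in 12 members (17.6%) against 3.26% of all promoters, among them RPS19, RPS6 and RPS28 shown above. It was in 19.6% of members with a peak and 13.6% of those without.

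Other motifs, each searched on both strands, were found in members as follows. CCGGAAG, the site of ETS factors, was in 23 members (33.8%, all promoters 14.1%), in 30.4% of those with a peak and 40.9% of those without. TATAAA was in 10.3% (all promoters 9.75%), in 6.52% with a peak and 18.2% without. GGGCGG, the GC box, was in 54.4% (58.3%), in 52.2% with a peak and 59.1% without. AAGATGG, for YY1, was in 13.2% (6.36%), in 10.9% with a peak and 18.2% without. TGACGTC, for CREB, was in 8.82% (4.57%), in 10.9% with a peak and 4.55% without. CGCATGC, for NRF1, was in 7.35% (5.15%), in 8.70% with a peak and 4.55% without. The E-box CACGTG was in 5.88% (8.82%), in 6.52% with a peak and 4.55% without. TATAAA and these last 4 motifs were each in at most 9 members. CTCGCGA and its reverse complement overlap in the full palindrome, and such a site was counted once per promoter. Members had a median G+C of 59.7% and 24 CpG pairs per promoter, against 62.7% and 22 over all protein-coding genes. Members with a lipid-overload peak had a median G+C of 60.5% and those without 56.7%. A match is a description of letters in these windows.

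**Figure D5:**
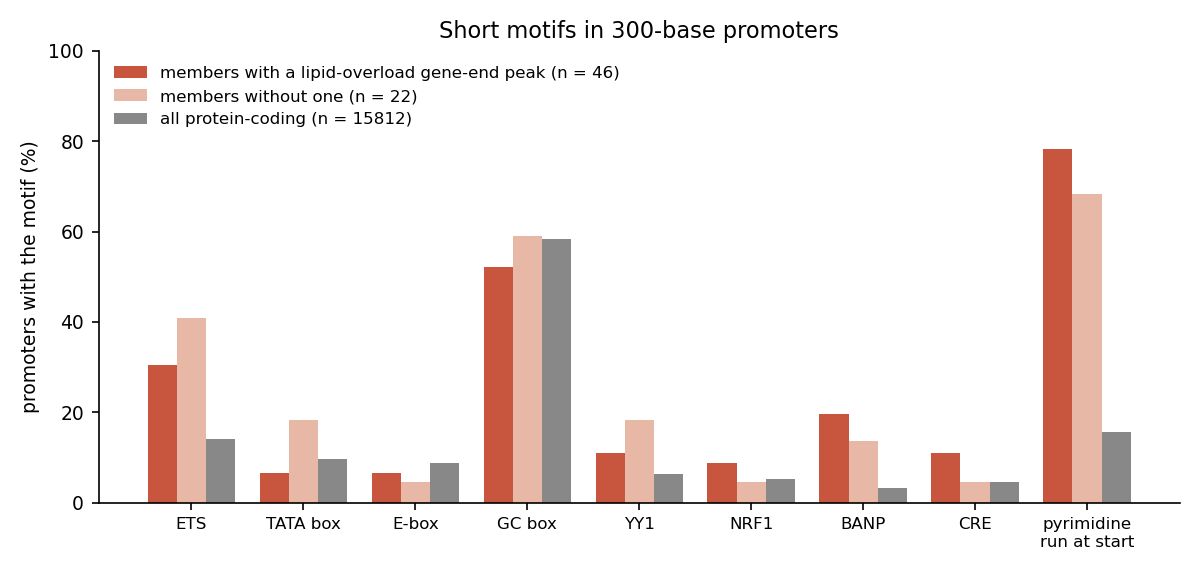
Percentage of 300-base promoters (y axis) that hold each motif (x axis), in members with a lipid-overload gene-end peak (red, n = 46), members without one (light, n = 22) and all protein-coding genes (grey, n = 15812). Members are split by a peak at either gene end, which need not lie at the promoter. The pyrimidine run stands at 78.3%, 68.2% and 15.6%, and the BANP motif at 19.6%, 13.6% and 3.26%.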

How the data were processed

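CUT&Tag of HepG2 cells used 100000 cells and 14 PCR cycles per assay, per the labels. FastQC, BWA, MACS2 2.1.2 and deepTools on hg38 are named in the submitters' processing notes, with settings and any use of an IgG control in peak calling not given in the sources used here. Each deposited list gives per peak a position, a summit, a score, a fold over local background (a linear ratio), and −log10 p and −log10 q, all the authors' own values, called per sample. Both lists reach down to a −log10 q of 1.30.

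Fragments over a summit were solved from the deposited fold, taken as fragments plus 1 over background plus 1, and −log10 p, taken as a Poisson tail. A whole number met every peak within 0.0001. The solving step was also run on data simulated from these same formulas. That run cannot show that the deposited values follow the formulas. Depth came from the genome background (0.121 and 0.289 fragments) over the mean fragment length (137 and 124 bp). RefSeq genes of GRCh38.p14 out of position order by over 1 Mb (718 of 59792) were left out. Strand came from the RefSeq promoter table, which misses 17 members. Intervals are exact Poisson for fragments and exact binomial for shares (95%) and cover counting error alone. Reads copied by PCR can make them too narrow. Python 3.11.15, numpy, pandas and scipy were used.

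Members, lists and motifs were chosen with earlier results of these data known. Named genes were those with a mock gene-end peak, the 15 highest in overloaded cells, those with inside peaks only, those without peaks, and the 4 highest of each companion list (ties by −log10 q). Results for some genes are not reported here. Others were named after their values were seen. Alternatives were stricter peaks, equal list lengths, scaled depth, summits in place of overlap and other windows.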

Additional observations from a re-analysis of the deposited data

How the results depend on the processing

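Counts of members depended on how many weak peaks a list holds. With −log10 q of at least 5, members with a gene-end peak in mock cells numbered 8 in place of 25 (all protein-coding genes 3.84%). In both lists they numbered 8 in place of 23 (background 3.72%) and in mock cells only 0 in place of 2 (background 0.126%). With a peak anywhere in mock cells they numbered 8 in place of 26 (background 5.59%). With a fold of at least 5 these were 14, 14, 0 and 14 (backgrounds 8.11%, 7.56%, 0.550% and 12.3%). Equal list lengths gave 38 members in overloaded cells in place of 62 (background 25.9%) and 19 in overloaded cells only in place of 39 (background 15.9%). They gave 6 in mock cells only (background 3.45%) and 39 anywhere in overloaded cells in place of 63 (background 32.6%). Scaling to the mock depth gave 37, 18, 6 and 38 (backgrounds 25.5%, 15.6%, 3.52% and 32.2%), and rounding down makes these numbers low. Gene ends of 3 kb left 1 member in mock cells only, a lower share than the 1.85% of all protein-coding genes. In every one of these settings the share of members with a gene-end peak in mock cells, and in overloaded cells, stayed above that of all protein-coding genes. Of 60 values recomputed, 40 moved by no more than 1.5 times (or, for shares, within the interval) and 20 by more. Some of the 40 could not move. Equal list lengths and scaled depth leave the mock list unchanged, and the pyrimidine run was searched at the same place in both promoter windows. With overlap of 50% of each peak, 12 member peaks were shared between the lists in place of 23, and the E-box was in 1 member in place of 4 in the shorter promoter window. No paired analysis was possible because each group has 1 sample.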

Other observations

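Ribosomal protein pseudogenes, mostly copies of messenger RNAs scattered through the genome, rarely had peaks. Of 1984 such pseudogenes, 13 had a gene-end peak in mock cells (0.655%, 0.349 to 1.12) and 36 in overloaded cells (1.81%, 1.27 to 2.50). All annotated pseudogenes stood at 1.38% and 3.85%. A peak over the pseudogene itself was listed for 9 in mock cells (0.454%) and 15 in overloaded cells (0.756%). For all annotated pseudogenes these shares were 1.27% and 2.80%. RPL32P3, RPLP0P2 and RPL23AP87 had such a peak in both lists. How reads that match several copies were treated is not given in the sources used here, and its part in these counts was not tested.

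Members were unevenly spread over chromosomes. On chromosome 19, which holds more members than any other chromosome, 11 of 12 had a gene-end peak in overloaded cells and 5 in mock cells, where 47.5% and 13.5% of all protein-coding genes there did. On chromosome 3, 4 of 9 had one in overloaded cells and 1 in mock cells, against 46.9% and 15.6% of all genes there. RPL14, RPL24, RPL29, RPL32 and RPL35A were the chromosome 3 members without a gene-end peak in either list. These are counts of few genes, with no test.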
